A study of Homo sapiens with 12 samples.

Results

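The 45 genes described here encode the enzymes, soluble activators and membrane proteins of the lysosome, together with the transcription factor TFEB. They were chosen by name, all 45 were among the 40591 gene lines with a symbol in the count table, and 44 had enough reads to be tested. CTSS, an elastin-cleaving cathepsin of antigen-presenting cells, had 0 to 8 reads per library and was not tested. RNA was sequenced from ARPE-19, an established human line derived from retinal pigment epithelium, in 4 groups of 3 libraries. The GFP, GSTA4 and OSK groups were stable lines sampled after 4 days of expression of the named open reading frame (ORF). The WT group carries that label alone. GSTA4 is a glutathione transferase that conjugates aldehydes formed from oxidised lipids, GFP is the fluorescent control protein, and OSK is the usual name for the reprogramming factors OCT4 (gene POU5F1), SOX2 and KLF4. Nothing in the labels tells if each library had its own line or culture, so a line and its ORF cannot be told apart and p-values measure only the spread between these samples. The series' text names a gene set enrichment analysis as the use of these libraries. Every comparison with GFP uses the same 3 GFP libraries, so these comparisons are not independent of each other.

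Lysosomes are acidic organelles in which peptidases, glycosidases, sulfatases and lipases break down proteins, glycans and lipids delivered by endocytosis and autophagy. Most soluble members are tagged with mannose phosphate in the Golgi and carried to the lysosome by receptors, while membrane glycoproteins line its wall and transporters and channels pass products and ions across it. Retinal pigment epithelium uses this system daily to digest the shed tips of photoreceptor outer segments. TFEB binds a palindromic E-box element found in many lysosomal gene promoters and moves to the nucleus when mTORC1 activity is low.

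Total counts over named genes were 12526826 to 16940870 per library. Levels are given as CPM, read counts scaled to library size with TMM factors, and 3 reads, the limit that a count of 0 allows, corresponded to 0.177 to 0.228 CPM. These limits cover counting error only. The ORF labels held: GSTA4 stood at 396 to 430.1 CPM in the GSTA4 libraries against 7.82 to 9.43 CPM in GFP, and POU5F1, SOX2 and KLF4 stood at 762 to 809, 622 to 632 and 911 to 947 CPM in OSK. Some libraries stood apart. In GFP replicate 1, 27349 genes had at least 1 read, where the range of the other libraries was 19488 to 22073, and WT replicate 1 differed more from its group (chi-square per degree of freedom 15.0 and 17.4) than any other pair of replicates did (2.54 to 7.12). The share of counts on mitochondrial genes was 5.99% to 6.06% in WT, 6.05% to 6.54% in GFP, 6.81% to 6.89% in OSK and 7.55% to 7.82% in GSTA4, with no overlap of the GSTA4 and OSK libraries with each other or with the rest. Of the defining markers of retinal pigment epithelium, RPE65 and TTR were near the limit of detection in all groups, while MITF, PMEL, KRT8 and KRT18 were detected in all 12 libraries. The 13 markers of this epithelium summed to 2227 to 2479 CPM in WT and 2006 to 2325 CPM in GFP. They summed to 1444 to 1509 CPM in GSTA4 and 1234 to 1296 CPM in OSK. KRT8, KRT18 and PMEL made up most of each sum. BEST1, RLBP1, MITF, PMEL, TYR, TYRP1, KRT8 and KRT18 had lower means in GSTA4 and OSK than in GFP. GFP itself was above WT for all of these but KRT8 and KRT18. Against WT, BEST1 was higher in GSTA4 (mean 5.38 CPM against 2.96). TYR (33.7 against 21.2) and TYRP1 (142 against 118) were higher in OSK than in WT. The other means of these genes in GSTA4 and OSK were below WT. LRAT was higher in GSTA4 (mean 14.3 CPM against 3.88 in GFP) and MERTK in OSK (3.78 against 2.55). SERPINF1 was nearly level in GSTA4 (150 against 152 in GFP) and lower in OSK (87.1), with WT at 56.9. The 7 fibroblast markers summed to 708 to 775 CPM in GFP, 528 to 557 CPM in GSTA4 and 337 to 396 CPM in OSK, almost all of it PDGFRB and COL1A1. The 8 leukocyte markers summed to at most 20.2 CPM, most of it CSF1R, and PTPRC, which defines leukocytes, did not exceed a group mean of 0.101 CPM. The part of these shifts in the results below was not tested, and in bulk RNA fewer cells of a type and less RNA per cell cannot be told apart.

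In TMM-scaled CPM, OSK libraries had a higher summed level of lysosomal RNA than the other groups. The 45 members together reached 14740.3 ± 441 CPM in OSK, against 12451 ± 825 CPM in GFP, 11582 ± 226 CPM in GSTA4 and 11803 ± 431 CPM in WT (mean ± SD, n = 3 each). The OSK libraries lay above all others in this sum, and the other groups overlapped. PSAP alone made up 37.5% to 45.8% of the sum. Without it, the sum was 8093 ± 270.0 CPM in OSK, 7529 ± 387 CPM in GFP, 7205 ± 99.4 CPM in GSTA4 and 7014 ± 287 CPM in WT. The TMM factors were 0.964 to 0.967 in OSK and 0.987 to 1.05 in GFP. The smaller difference without PSAP therefore depends in part on the scaling. The group mean was highest in OSK for 25 of the 44 tested members, in GSTA4 for 11, in GFP for 6 and in WT for 2. This order of means was not counted over all genes. A stricter pattern, all 3 libraries of a group above the other 9, was uneven over all tested genes. It held for OSK in 15.7% of them, for GSTA4 in 9.68%, for GFP in 3.32% and for WT in 5.48%.

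A member was called where its Benjamini-Hochberg adjusted p over all 15179 tested genes was under 0.05 in edgeR's quasi-likelihood test. In OSK against GFP, 26 of 44 members were called, where 45.9% of all tested genes were. Of these, 21 were higher (23.1% of all genes) and 5 lower (22.8% of all genes), and the median log2 fold change of the members was 0.17, against -0.019 over all genes. With library size as the only scaling the split was 18 higher and 8 lower, with a median of 0.10 against -0.089 over all genes. That scaling called 45.8% of all genes. In GSTA4 against GFP, 16 members were called, where 29.2% of all genes were. In this comparison 10 were higher (14.7% of all genes) and 6 lower (14.6% of all genes), and the median was 0.001, against 0.008 over all genes. This split rested on single libraries: it was 4 higher and 9 lower without GFP replicate 1, 13 higher and 9 lower without WT replicate 1, and 5 and 5 without GSTA4 replicate 2. The share of all genes called moved too, to 22.6%, 32.4% and 22.1% in these fits. In OSK against GSTA4, 29 members were called (22 higher, 7 lower), where 47.8% of all genes were, 24.1% higher and 23.8% lower. The split there was 21 higher and 12 lower with library size as the only scaling, which called 49.0% of all genes. In GFP against WT, 17 members were called (13 higher, 4 lower), where 22.2% of all genes were, 11.0% higher and 11.2% lower. An F test across the 4 groups called 40 of the 44 members, where it called 66.9% of all genes. GALNS, ARSA, NPC2 and SCARB2 were not called by it.

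**Figure D1:**
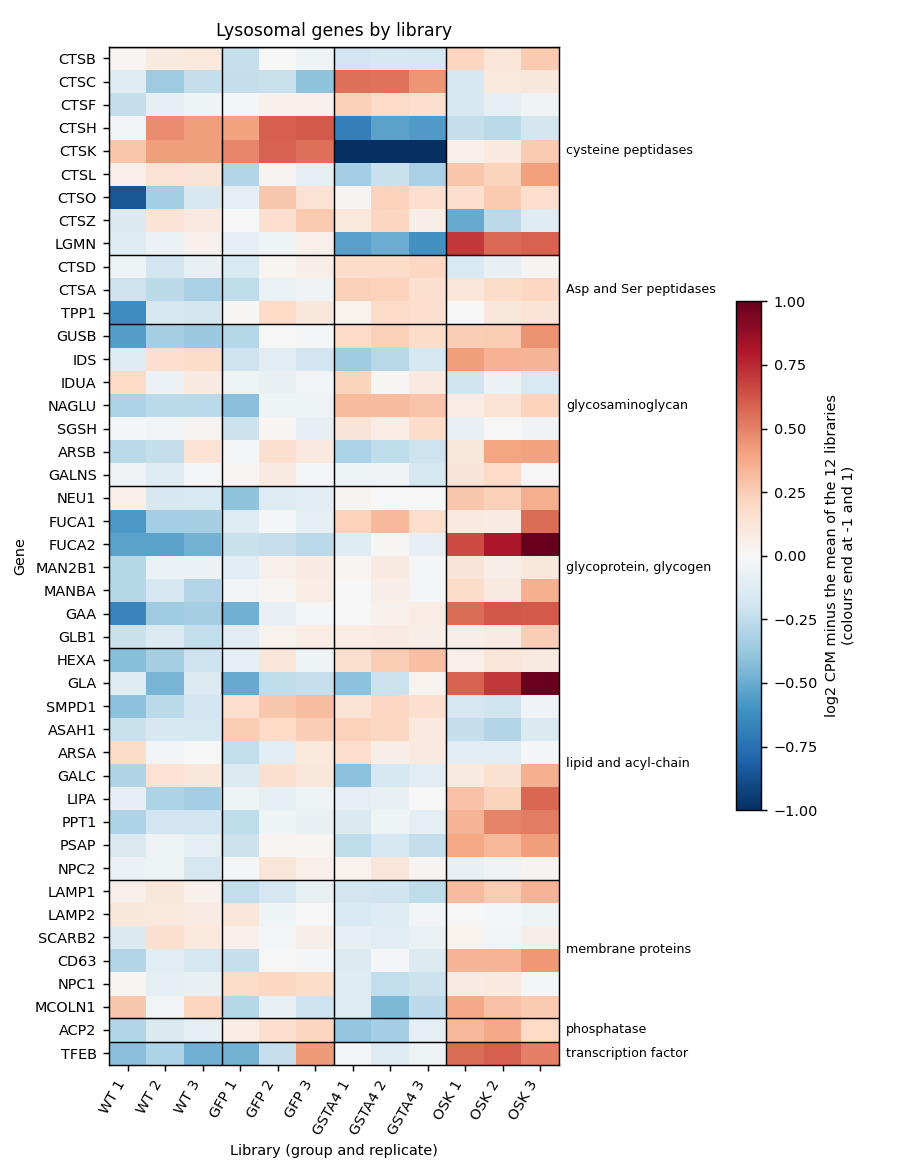
Level of the 44 tested genes in each of the 12 libraries, as log2 CPM minus the gene's mean over the 12 libraries (red higher, blue lower, colours ending at -1 and 1); rows are grouped by role and columns by group. The 3 OSK columns lie above the other 9 libraries for 16 genes, and the GSTA4 columns are lowest for CTSH, CTSK, LGMN and NPC1.

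The changes were mostly small. A log2 fold change of at least 1 in size together with a call was reached by 2 members in GSTA4 against GFP (5.70% of all genes), 2 in OSK against GFP (11.6%) and 2 in OSK against GSTA4 (13.1%). In GFP against WT no member changed by that much, where 3.31% of all genes did. The ratio of the highest to the lowest group mean had a median of 1.47 over the 44 members, exceeded 1.5 in 17 of them and exceeded 2 in 6. Those 6 were CTSK (3.01), FUCA2 (2.53), LGMN (2.26), CTSH (2.19), GLA (2.14) and GAA (2.06). All 3 OSK libraries lay above the other 9 libraries for 16 of 44 members, a pattern that 15.7% of all tested genes showed, and below them for 0 members, where 12.8% of all genes did. The GSTA4 libraries lay above the other 9 for CTSC, CTSD, CTSF, HEXA, NAGLU and SGSH (9.68% of all genes) and below them for CTSH, CTSK, LGMN and NPC1 (7.75% of all genes). The WT libraries lay below the other 9 for 8 members, where 5.05% of all genes did, and above them for 0, where 5.48% of all genes did. The GFP libraries lay above the other 9 for CTSK and NPC1 (3.32% of all genes) and below them for 0 members, where 3.12% of all genes did. Between pairs of groups, the libraries did not overlap for 21 of 44 members in GSTA4 against GFP (42.3% of all genes), 28 in OSK against GFP (54.7%), 37 when OSK was set against GSTA4 (58.0%) and 19 in GFP against WT (34.6%).

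**Figure D2:**
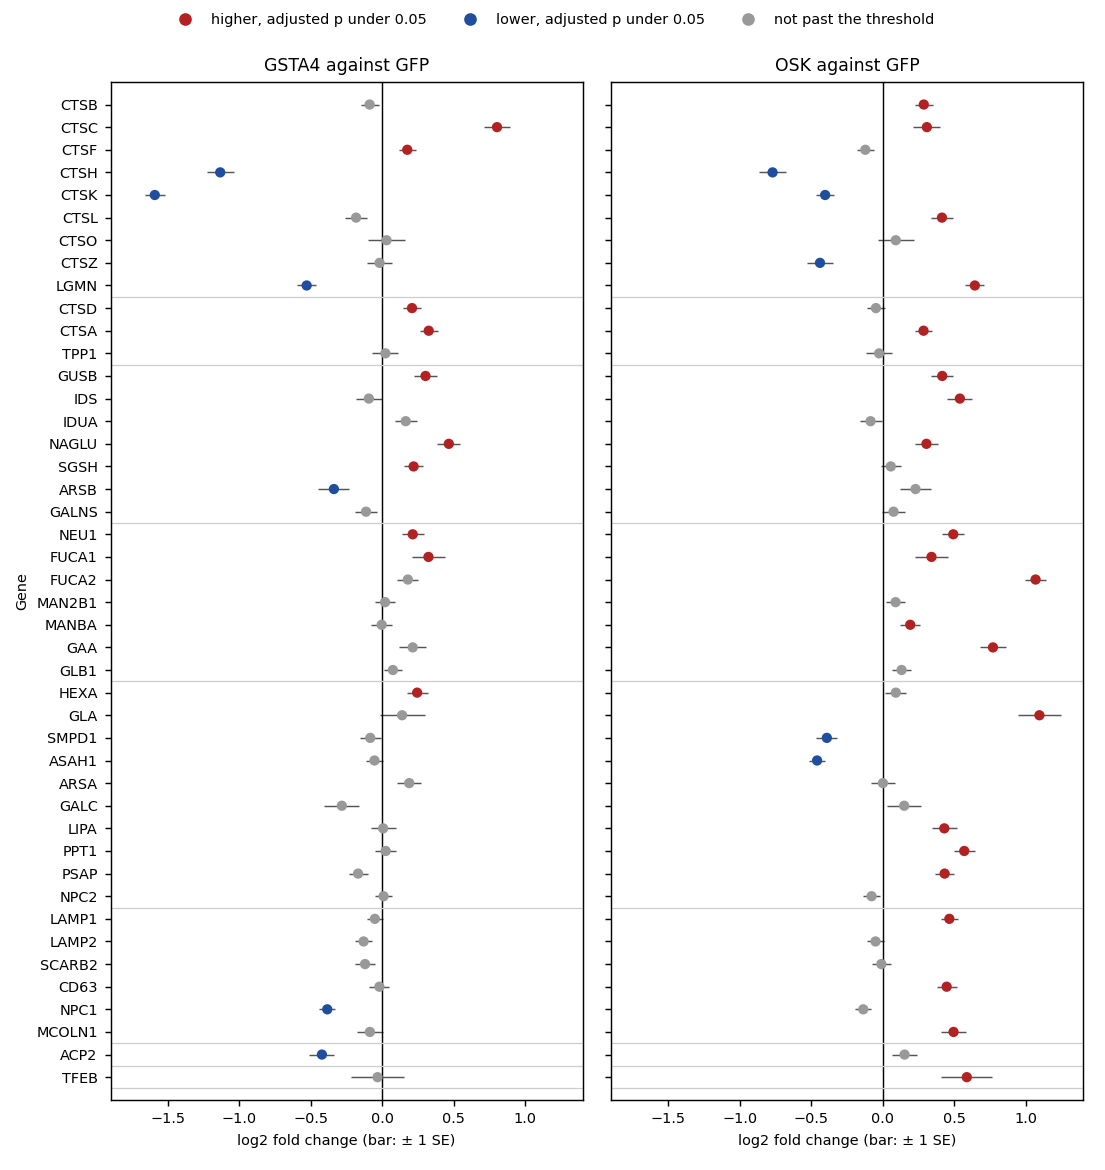
Log2 fold change of each tested gene in GSTA4 against GFP (left) and OSK against GFP (right), with bars of 1 SE and colours for calls at adjusted p under 0.05. CTSK and CTSH lie furthest to the left in GSTA4 (-1.59 and -1.13), and FUCA2 and GLA furthest to the right in OSK (1.07 and 1.10).

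Levels between genes were compared per kilobase of exon, counting all annotated exons of a gene together (GENCODE 29). The order therefore depends on which isoforms are annotated. In GFP, CTSH had a higher mean CPM than CTSD (582 against 551) but a longer exon length (5892 against 3126 bases). In GFP, PSAP was by far the most abundant at 1520 ± 135 CPM per kb, followed by CD63 at 271 ± 24 and CTSD at 176 ± 13.5 CPM per kb (SD, n = 3). CTSH followed at 98.8 ± 7.72 CPM per kb. CTSK (82.7 ± 2.97), CTSF (81.5 ± 2.17) and NPC2 (81.3 ± 4.09 CPM per kb) came next and did not differ from each other beyond their spread.

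TFEB, the master transcription factor of lysosomal genes, was a low-abundance transcript (gene at chr6:41683978-41736259, GRCh38). It was at 5.59, 6.01 and 5.36 CPM in WT, 5.39, 6.37 and 10.0 CPM in GFP, 7.36, 6.82 and 7.21 CPM in GSTA4, and 11, 11.3 and 10.6 CPM in OSK. The OSK libraries were the highest, and GFP replicate 3 stood apart from its group and near the OSK level. TFEB rose in OSK against GFP (log2 fold change 0.59, SE 0.18, adjusted p = 0.0106) and against GSTA4 (log2 fold change 0.62, SE 0.18, adjusted p = 0.00673). The rise over GFP was 0.90 without GFP replicate 3, and the call was lost without GFP replicate 1 (adjusted p = 0.0679) or GFP replicate 2 (adjusted p = 0.0508). GSTA4 against GFP was not called (log2 fold change -0.033, SE 0.19, adjusted p = 0.918), nor was GFP against WT (log2 fold change 0.37, SE 0.19, adjusted p = 0.17). The difference of GFP from WT was 0.062 without GFP replicate 3 and 0.54 without GFP replicate 1, where it was called (adjusted p = 0.0472).

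The sequence that TFEB is known to bind, TCACGTGA, was looked for in RefSeq promoter windows of 300 bases (250 before to 50 after the transcript start, GRCh38.p14). It is a palindrome, so a single search covers both strands, and it contains the shorter E-box CACGTG. Of the 45 members, 32 matched by symbol, with 50 windows between them. TCACGTGA was in 5 of these 50 windows (10%), each of a different gene, against 0.98% of all 35116 windows. The shorter CACGTG was in 10 of the 50 windows (20%), from 10 genes, against 7.26% of all windows. The promoters with the 8-base match are shown because they place the element relative to the genes measured below. Capitals mark each match, and each run reads 5′ to 3′ on the gene's strand. A run goes from 30 bases before the first match to at most 30 bases after the last and stops at the transcript start, except that the second LAMP1 match crosses it. CTSA lies at chr20:45891279-45891334 (plus strand), GAA at chr17:80101474-80101580 (plus strand), GALNS at chr16:88857085-88857152 (minus strand), LAMP1 at chr13:113297180-113297244 (plus strand) and MCOLN1 at chr19:7522552-7522623 (plus strand).
CTSA: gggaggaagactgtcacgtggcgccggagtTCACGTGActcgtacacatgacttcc
GAA: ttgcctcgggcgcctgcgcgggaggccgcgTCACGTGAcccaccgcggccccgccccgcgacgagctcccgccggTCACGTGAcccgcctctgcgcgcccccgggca
GALNS: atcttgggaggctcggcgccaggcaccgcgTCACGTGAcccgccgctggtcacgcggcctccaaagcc
LAMP1: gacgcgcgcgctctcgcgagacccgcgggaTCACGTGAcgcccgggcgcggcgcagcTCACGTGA
MCOLN1: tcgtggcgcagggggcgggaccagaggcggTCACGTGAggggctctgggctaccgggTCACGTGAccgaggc
GAA, LAMP1 and MCOLN1 each held 2 copies, the first base of the nearer copy lying 32, 2 and 15 bases upstream of the transcript start. CTSA had 1 copy 26 bases upstream, and GALNS had 1 copy 175 bases upstream. In OSK against GFP, CTSA, GAA, LAMP1 and MCOLN1 were called higher, with values given with their role groups below. GALNS was not (log2 fold change 0.076, SE 0.079, adjusted p = 0.453). In this contrast 21 of the 44 tested members and 23.1% of all genes were called higher. Of the genes with only the shorter match, CD63 and NEU1 were called higher, and ARSB, CTSD and CTSF were not called. A match of letters describes the window and was not tested for binding.

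Among the 6 membrane proteins, LAMP1, CD63 and MCOLN1 rose in OSK against GFP, and LAMP2, SCARB2 and NPC1 were not called. That is 3 of 6, where 45.9% of all genes were called. LAMP1, a heavily glycosylated protein of the lysosomal wall, was at 473, 496 and 472 CPM in WT, 385, 407 and 436 CPM in GFP, 402, 399 and 384 CPM in GSTA4, and 571, 546 and 580.1 CPM in OSK. All OSK libraries lay above all others, and the GFP and GSTA4 libraries lay below WT. LAMP1 rose in OSK against GFP (log2 fold change 0.47, SE 0.058, adjusted p = 1.36e-06) and against GSTA4 (log2 fold change 0.52, SE 0.058, adjusted p = 2.47e-07), and it was lower in GFP than in WT (log2 fold change -0.23, SE 0.058, adjusted p = 0.0075). MCOLN1 encodes the TRPML1 channel, which releases calcium from the lysosome. It was at 62.6, 50.9 and 60.4 CPM in WT, 42.7, 49.5 and 45.1 CPM in GFP, 47.6, 38.1 and 43.4 CPM in GSTA4, and 67.6, 63.8 and 62.3 CPM in OSK. OSK lay above GFP and GSTA4 without overlap and in the range of WT or slightly above it. MCOLN1 rose in OSK against GFP (log2 fold change 0.50, SE 0.091, adjusted p = 0.000139) and was lower in GFP than in WT (log2 fold change -0.34, SE 0.091, adjusted p = 0.0102). CD63, a tetraspanin of late endosomes and lysosomes, was at 613, 696 and 664 CPM in WT, 639.9, 753 and 745 CPM in GFP, 683, 743 and 682 CPM in GSTA4, and 951, 948 and 1017 CPM in OSK. Only the OSK libraries left the range of the others, upward (log2 fold change 0.45, SE 0.07, adjusted p = 2.24e-05 against GFP).

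NPC1, the transporter that moves cholesterol out of the lysosome, was the only membrane protein called in GSTA4 against GFP. That is 1 of 6, where 29.2% of all genes were called. NPC1 was at 271, 253 and 256 CPM in WT, 305, 311 and 306 CPM in GFP, 246, 227 and 232 CPM in GSTA4, and 285, 288 and 265 CPM in OSK. The GFP libraries were the highest and the GSTA4 libraries the lowest of all. NPC1 was lower in GSTA4 than in GFP (log2 fold change -0.38, SE 0.057, adjusted p = 2.74e-05), higher in GFP than in WT (log2 fold change 0.24, SE 0.057, adjusted p = 0.0047) and higher in OSK than in GSTA4 (log2 fold change 0.25, SE 0.057, adjusted p = 0.00106). In OSK against GFP it missed the threshold (log2 fold change -0.14, SE 0.057, adjusted p = 0.0561) and passed it in 5 of 19 other settings, with an adjusted p down to 0.00564. LAMP2, which includes the receptor isoform of chaperone-mediated autophagy, was at 440.2, 438 and 431 CPM in WT, 443, 395 and 405 CPM in GFP, 366, 372 and 399 CPM in GSTA4, and 405, 402 and 395 CPM in OSK. It passed the threshold in none of the 4 contrasts, and its group means spanned a ratio of 1.15. SCARB2, the receptor that carries glucocerebrosidase to the lysosome, was at 244 to 301 CPM over all libraries, was called in none of the 4 contrasts (in OSK against GSTA4 it was called when only the 6 libraries compared were fitted, adjusted p = 0.0417), and had the smallest ratio of group means of all 44 members, 1.10.

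Of the 10 cysteine peptidases, 9 were tested. In GSTA4 against GFP, CTSK, CTSH and LGMN fell, CTSC and CTSF rose, and 4 were not called, where 29.2% of all genes were called. In OSK against GFP, 4 rose (CTSB, CTSC, CTSL and LGMN) and 3 fell (CTSH, CTSK and CTSZ), where 23.1% of all genes rose and 22.8% fell. Their summed level was 1435 ± 30.1 CPM in GSTA4, below every library of the other groups, against 1874 ± 127 CPM in GFP, 1751 ± 71.1 CPM in OSK and 1809 ± 151 CPM in WT.

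CTSK, the collagen-degrading cathepsin best known from osteoclasts, showed the largest change of any member (gene at chr1:150796208-150808323). It was at 130.3, 143 and 143 CPM in WT, 150.1, 161 and 157 CPM in GFP, 49.8, 53.9 and 51.9 CPM in GSTA4, and 111, 114 and 129 CPM in OSK. The GSTA4 libraries held less than every other library, and the GFP libraries held the most. CTSK fell in GSTA4 against GFP (log2 fold change -1.59, SE 0.069, adjusted p = 4.35e-13) and, by less, in OSK against GFP (log2 fold change -0.40, SE 0.065, adjusted p = 3.59e-05). The OSK and GSTA4 lines differed in turn (log2 fold change 1.19, SE 0.069, adjusted p = 8.94e-12), with OSK higher. CTSH, an aminopeptidase, followed the same order of groups (gene at chr15:78921058-78949574). It was at 393, 555 and 536 CPM in WT, 529, 605 and 611 CPM in GFP, 249, 277 and 271 CPM in GSTA4, and 339.6, 333 and 352 CPM in OSK. GSTA4 was lowest and OSK next, with no overlap of these groups with each other or with GFP and WT. CTSH fell in GSTA4 against GFP (log2 fold change -1.13, SE 0.095, adjusted p = 1.07e-08) and in OSK against GFP (log2 fold change -0.77, SE 0.094, adjusted p = 9.99e-07). Of the reads of the 9 cathepsins in this group, CTSH held 32.4% ± 0.484 in GFP, 19.2% ± 0.776 in GSTA4 and 21.0% ± 0.378 in OSK (SD, n = 3).

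LGMN, the asparaginyl endopeptidase that processes cathepsins, moved in opposite directions in the 2 lines (gene at chr14:92703807-92748702). It was at 74.6, 77.7 and 83.8 CPM in WT, 76.8, 78.7 and 84.2 CPM in GFP, 55.6, 57.4 and 53.2 CPM in GSTA4, and 133, 120.2 and 122 CPM in OSK. WT and GFP overlapped, GSTA4 lay below them and OSK above. LGMN fell in GSTA4 against GFP (log2 fold change -0.53, SE 0.068, adjusted p = 5.1e-06) and rose in OSK against GFP (log2 fold change 0.64, SE 0.066, adjusted p = 8.23e-08), and the direct comparison of OSK with GSTA4 was called (log2 fold change 1.17, SE 0.067, adjusted p = 8.1e-12). CTSC, the dipeptidyl peptidase that activates granule serine proteases, was the member that rose most in GSTA4. It was at 30.8, 26.1 and 28.3 CPM in WT, 28.3, 28.6 and 25.2 CPM in GFP, 49.1, 48.8 and 45.4 CPM in GSTA4, and 29.6, 36.0 and 36.2 CPM in OSK. The GSTA4 libraries were the highest of all, and CTSC rose against GFP (log2 fold change 0.80, SE 0.093, adjusted p = 1.23e-06). Its smaller rise in OSK (log2 fold change 0.31, SE 0.095, adjusted p = 0.0111) lost its call without GFP replicate 3, OSK replicate 2 or OSK replicate 3 (adjusted p = 0.0558, 0.0536 and 0.053) and with library size as the only scaling (adjusted p = 0.0586). OSK was lower than GSTA4 (log2 fold change -0.49, SE 0.091, adjusted p = 0.000132).

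CTSB and CTSL, endopeptidases found in most tissues, had their highest libraries in OSK. CTSB was at 583, 612 and 619 CPM in WT, 489.6, 575 and 557 CPM in GFP, 504, 514 and 508 CPM in GSTA4, and 666, 624 and 690.0 CPM in OSK. It rose in OSK against GFP (log2 fold change 0.29, SE 0.064, adjusted p = 0.000931) and against GSTA4 (log2 fold change 0.38, SE 0.064, adjusted p = 5.14e-05), while GSTA4 against GFP was not called (log2 fold change -0.088, SE 0.064, adjusted p = 0.329). CTSL was at 110.1, 118 and 116 CPM in WT, 86.8, 109 and 99.8 CPM in GFP, 84.0, 91.2 and 84.9 CPM in GSTA4, and 129, 124 and 141 CPM in OSK. It rose in OSK against GFP (log2 fold change 0.41, SE 0.074, adjusted p = 0.000106) and was not called in GSTA4 against GFP (log2 fold change -0.18, SE 0.075, adjusted p = 0.0739), though it passed there in 6 of 19 other settings, with an adjusted p down to 0.0101. In GFP against WT it fell (log2 fold change -0.22, SE 0.074, adjusted p = 0.0379), a call lost without WT replicate 2 or 3 or GFP replicate 1 or 3, with an adjusted p of up to 0.179 and a log2 fold change of -0.14 without GFP replicate 1. CTSZ, a carboxypeptidase, was at 99.9 to 122 CPM in WT, 110.1 to 132 in GFP, 115 to 128 in GSTA4 and 77.8 to 101 in OSK, and fell in OSK against GFP (log2 fold change -0.44, SE 0.091, adjusted p = 0.000512). CTSF rose slightly in GSTA4 against GFP (log2 fold change 0.17, SE 0.06, adjusted p = 0.0343), and that call was lost when any GFP or GSTA4 library was left out (adjusted p of up to 0.11). CTSO was at 16.2, 23.2 and 26.2 CPM in WT, 27.3, 35.2 and 32.4 CPM in GFP, 29.8, 34.4 and 32.9 CPM in GSTA4, and 33.0, 35.2 and 33.1 CPM in OSK. The WT libraries lay below all others. CTSO was higher in GFP than in WT (log2 fold change 0.53, SE 0.13, adjusted p = 0.00591), a difference of 0.35 once WT replicate 1 was left out, and was not called in GSTA4 or OSK against GFP.

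**Figure D3:**
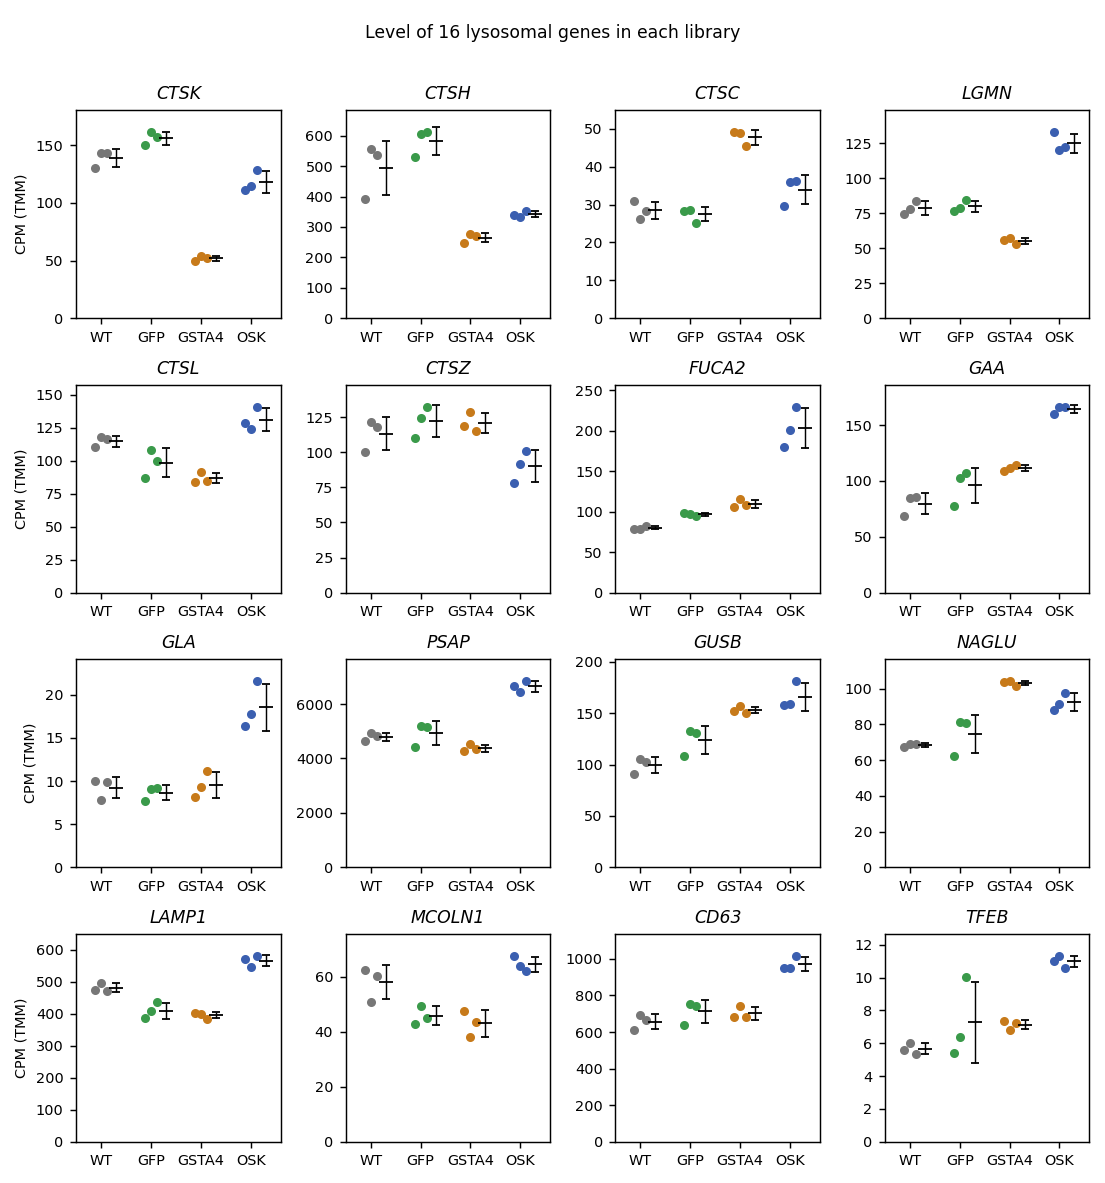
CPM of 16 genes in each library, 3 points per group with the mean and SD beside them in black; each panel has its own vertical axis starting at 0. CTSK and CTSH are lowest in GSTA4, LGMN is lowest in GSTA4 and highest in OSK, and FUCA2, GAA, GLA and PSAP are highest in OSK.

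The 3 aspartic and serine peptidases were all called higher in GSTA4 than in WT, where 19.7% of all genes were, and 2 of them in GSTA4 against GFP, where 14.7% were. CTSA, the serine carboxypeptidase that shields beta-galactosidase and neuraminidase in a complex, was at 269, 258 and 248 CPM in WT, 259.9, 297 and 303 CPM in GFP, 365, 364 and 347 CPM in GSTA4, and 338, 352 and 358 CPM in OSK. GSTA4 and OSK overlapped with each other and lay above GFP and WT. CTSA rose in GSTA4 (log2 fold change 0.32, SE 0.063, adjusted p = 0.00049) and in OSK (log2 fold change 0.29, SE 0.063, adjusted p = 0.000826) against GFP. CTSD, the main aspartic peptidase of the lysosome, was at 541, 489 and 530.5 CPM in WT, 503, 567 and 583 CPM in GFP, 633, 633 and 643 CPM in GSTA4, and 502, 530.1 and 568 CPM in OSK. GSTA4 was highest, and the other 3 groups overlapped. CTSD rose in GSTA4 against GFP (log2 fold change 0.21, SE 0.066, adjusted p = 0.0215), a call lost without GFP replicate 1, GSTA4 replicate 2 or GSTA4 replicate 3 (adjusted p = 0.1, 0.053 and 0.0639). OSK against GFP was not called (log2 fold change -0.047, SE 0.066, adjusted p = 0.59). TPP1, a tripeptidyl peptidase whose loss causes a neuronal ceroid lipofuscinosis, was at 283, 389.8 and 383 CPM in WT, 438, 498 and 472 CPM in GFP, 445, 496 and 488 CPM in GSTA4, and 435, 471 and 477 CPM in OSK. WT was below the other groups, and WT replicate 1 was the lowest of all. TPP1 was higher in GFP than in WT (log2 fold change 0.41, SE 0.091, adjusted p = 0.00275), a difference of 0.28 once WT replicate 1 was left out, and was called in neither GSTA4 nor OSK against GFP. Exons of CTSD share 41.7% of their bases with a gene on the same strand and exons of CTSA share 17.7% with NEURL2 on the other strand in GENCODE 29, and how such reads were assigned is not given in the sources used here.

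Of the 7 enzymes that degrade glycosaminoglycans, GUSB, NAGLU and IDS rose in OSK against GFP, and the other 4 were not called. That is 3 of 7, close to the 45.9% of all genes called. GUSB, the beta-glucuronidase, was at 90.6, 105 and 102 CPM in WT, 109, 133 and 131 CPM in GFP, 152, 157 and 151 CPM in GSTA4, and 158, 159 and 181 CPM in OSK. The order of groups was WT, GFP, GSTA4 and OSK, with GSTA4 and OSK close together. GUSB was higher in GFP than in WT (log2 fold change 0.32, SE 0.079, adjusted p = 0.00619), in GSTA4 than in GFP (log2 fold change 0.30, SE 0.078, adjusted p = 0.00565) and in OSK than in GFP (log2 fold change 0.42, SE 0.078, adjusted p = 0.000167), while OSK and GSTA4 did not differ past the threshold (log2 fold change 0.11, SE 0.077, adjusted p = 0.236). The 17 lines of GUSB pseudogenes held 258 to 382 reads per library in sum, so GUSB reads could be split with near-identical copies. NAGLU, which removes N-acetylglucosamine from heparan sulfate, was at 67.1, 69.2 and 69.3 CPM in WT, 62.3, 81.1 and 80.7 CPM in GFP, 104, 104 and 102 CPM in GSTA4, and 88.0, 91.5 and 97.9 CPM in OSK. GSTA4 was highest and OSK next, and GFP replicate 1 was the lowest library. NAGLU rose in GSTA4 (log2 fold change 0.47, SE 0.08, adjusted p = 0.000152) and in OSK (log2 fold change 0.31, SE 0.08, adjusted p = 0.00373) against GFP, the latter by 0.19 without GFP replicate 1.

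IDS, the sulfatase lost in Hunter syndrome, was at 32.4, 39.7 and 40.2 CPM in WT, 30.6, 32.7 and 30.9 CPM in GFP, 27.7, 29.2 and 31.5 CPM in GSTA4, and 47.2, 45.1 and 44.8 CPM in OSK. OSK was highest, and GSTA4 and GFP overlapped. IDS rose in OSK against GFP (log2 fold change 0.54, SE 0.088, adjusted p = 3.85e-05) and against GSTA4 (log2 fold change 0.63, SE 0.088, adjusted p = 4.59e-06). Its lower level in GFP than in WT (log2 fold change -0.25, SE 0.089, adjusted p = 0.047) lost its call in 9 of the 12 fits that left out 1 library, among them each GFP and each OSK library, WT replicate 2 or 3 and GSTA4 replicate 2 (adjusted p of up to 0.171). ARSB, which removes sulfate from dermatan and chondroitin sulfate, was at 24.7, 25.3 and 32.8 CPM in WT, 29.4, 33.3 and 31.9 CPM in GFP, 24, 25 and 25.8 CPM in GSTA4, and 32.3, 39.2 and 39.3 CPM in OSK. It was lower in GSTA4 than in GFP (log2 fold change -0.34, SE 0.11, adjusted p = 0.0238), a call lost without GFP replicate 2 or 3 or GSTA4 replicate 1 or 2 (adjusted p of up to 0.0871), and higher in OSK than in GSTA4 (log2 fold change 0.57, SE 0.11, adjusted p = 0.000173). SGSH, a heparan sulfamidase, rose in GSTA4 against GFP (log2 fold change 0.22, SE 0.069, adjusted p = 0.0211), and the call was lost without GFP replicate 1 or 3 or GSTA4 replicate 1 or 3 (adjusted p of up to 0.108). IDUA, the iduronidase lost in Hurler syndrome, was lower in OSK than in GSTA4 (log2 fold change -0.25, SE 0.077, adjusted p = 0.0109), a call lost without GSTA4 replicate 1 or OSK replicate 1 (adjusted p = 0.0757 and 0.0724). GALNS, which desulfates keratan sulfate, was at 33.7 to 43.4 CPM over all libraries and passed in none of the 4 contrasts. In OSK against GSTA4 it was just short of the threshold (log2 fold change 0.19, SE 0.079, adjusted p = 0.0529) and passed it in 7 of 19 other settings.

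All 5 calls in OSK against GFP among the 7 genes of glycoprotein and glycogen degradation were upward, where 23.1% of all genes were called higher and 22.8% lower. Their summed level was 971 ± 54.2 CPM in OSK, 779 ± 18.0 CPM in GSTA4, 722 ± 49.9 CPM in GFP and 641 ± 27.8 CPM in WT. FUCA2, a fucosidase that is largely secreted, rose most (gene at chr6:143494811-143511690). It was at 79.0, 79.0 and 82.5 CPM in WT, 98.2, 97.6 and 94.7 CPM in GFP, 105, 115 and 108 CPM in GSTA4, and 179.7, 200.3 and 229 CPM in OSK. The OSK libraries lay far above the rest, WT was lowest, and GFP and GSTA4 lay between. FUCA2 rose in OSK against GFP (log2 fold change 1.07, SE 0.073, adjusted p = 1.71e-10) and was higher in GFP than in WT (log2 fold change 0.27, SE 0.074, adjusted p = 0.0122). GAA, the acid alpha-glucosidase that digests glycogen and is lost in Pompe disease, was at 68.5, 84.7 and 86.0 CPM in WT, 77.8, 103 and 107 CPM in GFP, 108, 112 and 114 CPM in GSTA4, and 159.8, 166 and 166 CPM in OSK. OSK was highest, and WT and GFP overlapped. GAA rose in OSK against GFP (log2 fold change 0.77, SE 0.094, adjusted p = 9.39e-07) and against GSTA4 (log2 fold change 0.56, SE 0.093, adjusted p = 4.17e-05), while GSTA4 against GFP was not called (log2 fold change 0.21, SE 0.095, adjusted p = 0.0994) except in 4 of 19 other settings, with an adjusted p down to 0.0207. The difference of GFP from WT (log2 fold change 0.27, SE 0.096, adjusted p = 0.0487) was 0.17 without WT replicate 1, and its call was lost in 10 of the 12 fits that left out 1 library, all but those without GFP replicate 1 or WT replicate 3 (adjusted p of up to 0.222).

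NEU1, the lysosomal sialidase, was at 86.6, 75.2 and 75.5 CPM in WT, 63.5, 76.6 and 78.0 CPM in GFP, 85.6, 83.6 and 83.7 CPM in GSTA4, and 101, 98.7 and 107 CPM in OSK. OSK was highest, and the other groups lay close together. NEU1 rose in OSK against GFP (log2 fold change 0.49, SE 0.077, adjusted p = 2.28e-05). Its smaller rise in GSTA4 (log2 fold change 0.21, SE 0.077, adjusted p = 0.0441) was lost in 8 of the 12 fits that left out 1 library, with a log2 fold change of 0.13 and an adjusted p of 0.24 without GFP replicate 1. The other 7 were those without GFP replicate 2 or any GSTA4 or OSK library (adjusted p of up to 0.11). FUCA1, the lysosomal fucosidase, was at 19.2, 22.6 and 22.7 CPM in WT, 26.2, 28.4 and 26.7 CPM in GFP, 33.6, 35.8 and 32.4 CPM in GSTA4, and 30.6, 30.3 and 42.2 CPM in OSK. WT was lowest, and OSK replicate 3 was the highest library. FUCA1 was called higher in OSK (log2 fold change 0.34, SE 0.11, adjusted p = 0.017) and in GSTA4 (log2 fold change 0.32, SE 0.11, adjusted p = 0.0357) against GFP and in GFP against WT (log2 fold change 0.34, SE 0.12, adjusted p = 0.0418), and each call was lost without some library. Without OSK replicate 3 the rise in OSK was 0.17 (adjusted p = 0.173), and without GFP replicate 1 its adjusted p was 0.0559. The GSTA4 call was lost without any GFP library or GSTA4 replicate 1 or 2 (adjusted p of up to 0.119), and the GFP call without any GFP or GSTA4 library or WT replicate 1 or 2 (adjusted p of up to 0.149).

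MANBA, the beta-mannosidase, was at 55.0, 59.6 and 54.7 CPM in WT, 65.8, 67.9 and 70.4 CPM in GFP, 67.1, 70.2 and 66.2 CPM in GSTA4, and 76.1, 71.5 and 85.7 CPM in OSK. WT lay below the other groups. MANBA was higher in GFP than in WT (log2 fold change 0.27, SE 0.073, adjusted p = 0.0113). It was called higher in OSK than in GFP (log2 fold change 0.19, SE 0.072, adjusted p = 0.0331), a call lost without GFP replicate 1 or 2 and, at a log2 fold change of 0.12, without OSK replicate 3 (adjusted p of up to 0.201). The call over GSTA4 (log2 fold change 0.20, SE 0.072, adjusted p = 0.0283) was lost without GSTA4 replicate 1 or 3 or OSK replicate 3 (adjusted p of up to 0.162), and both were lost with library size as the only scaling. GLB1, the beta-galactosidase whose activity is used as a senescence stain, was at 104 to 112 CPM in WT, 114 to 129 in GFP, 128 to 130.1 in GSTA4 and 128 to 146 in OSK. Of the 4 contrasts it was called in GFP against WT (log2 fold change 0.20, SE 0.065, adjusted p = 0.0301), a call lost without WT replicate 1 or 3 or GFP replicate 2 or 3 (adjusted p of up to 0.117). MAN2B1, the alpha-mannosidase, was at 195 to 259 CPM over all libraries and passed in none of the 4 contrasts.

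Among the 10 genes of lipid breakdown and cholesterol transfer, GLA, LIPA, PPT1 and PSAP rose in OSK against GFP, SMPD1 and ASAH1 fell, and 4 were not called, where 45.9% of all genes were called. GLA, the alpha-galactosidase lost in Fabry disease, had the largest rise but low counts, 101 to 307 reads per library (gene at chrX:101397803-101408012). It was at 10.0, 7.85 and 9.90 CPM in WT, 7.67, 9.09 and 9.23 CPM in GFP, 8.19, 9.37 and 11.1 CPM in GSTA4, and 16.3, 17.8 and 21.6 CPM in OSK. The OSK libraries lay above all others, which overlapped. GLA rose in OSK against GFP (log2 fold change 1.10, SE 0.15, adjusted p = 4.31e-06) and against GSTA4 (log2 fold change 0.96, SE 0.15, adjusted p = 1.63e-05). PSAP, the precursor of the saposins that present sphingolipids to their hydrolases, was at 4630.2, 4925 and 4813 CPM in WT, 4417, 5180.4 and 5169 CPM in GFP, 4279.7, 4520.1 and 4333 CPM in GSTA4, and 6679.6, 6430.4 and 6832 CPM in OSK. OSK was highest, and the GSTA4 libraries were near or below the lower end of WT and GFP. PSAP rose in OSK against GFP (log2 fold change 0.43, SE 0.067, adjusted p = 1.96e-05) and missed the threshold in GSTA4 against GFP (log2 fold change -0.17, SE 0.067, adjusted p = 0.0628). In 9 of 19 other settings PSAP was called lower in GSTA4, DESeq2 (adjusted p = 0.0168) and RLE scaling (adjusted p = 0.048) among them, with a log2 fold change of -0.24 and an adjusted p of 0.00221 without GFP replicate 1. PPT1, which removes palmitate from proteins, was at 48.2, 52.2 and 52.1 CPM in WT, 50.1, 58.1 and 56.7 CPM in GFP, 53.9, 57.9 and 55.9 CPM in GSTA4, and 75.7, 84.0 and 85.2 CPM in OSK. It rose in OSK against GFP (log2 fold change 0.57, SE 0.073, adjusted p = 2.02e-06), and its exons share 23.4% of their bases with CAP1 on the other strand. LIPA, the acid lipase of cholesteryl esters, rose in OSK against GFP (log2 fold change 0.43, SE 0.087, adjusted p = 0.000391) and was at 65.4 to 83.4 CPM there and 52.5 to 54.4 CPM in GFP.

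The 2 sphingolipid hydrolases that fell in OSK had been higher in GFP than in WT. ASAH1, the acid ceramidase, was at 309, 321 and 319 CPM in WT, 429.6, 414 and 426 CPM in GFP, 422, 416 and 385 CPM in GSTA4, and 305, 294 and 325 CPM in OSK. GFP and GSTA4 overlapped at the higher level, and WT and OSK at the lower. ASAH1 fell in OSK against GFP (log2 fold change -0.46, SE 0.058, adjusted p = 1.52e-06), was higher in GFP than in WT (log2 fold change 0.42, SE 0.058, adjusted p = 3.39e-05) and did not pass the threshold in GSTA4 against GFP (log2 fold change -0.054, SE 0.058, adjusted p = 0.522). In OSK against WT it was not called (log2 fold change -0.039, SE 0.058, adjusted p = 0.621). SMPD1, the acid sphingomyelinase, was at 39.8, 43.7 and 46.2 CPM in WT, 59.6, 63.7 and 65.5 CPM in GFP, 58.1, 61.0 and 59.2 CPM in GSTA4, and 46.9, 45.9 and 51.4 CPM in OSK. The same grouping held, with OSK close to WT. SMPD1 fell in OSK against GFP (log2 fold change -0.39, SE 0.074, adjusted p = 0.000216) and was higher in GFP than in WT (log2 fold change 0.54, SE 0.075, adjusted p = 3.4e-05), and OSK against WT was not called (log2 fold change 0.15, SE 0.075, adjusted p = 0.109). HEXA, the alpha subunit of beta-hexosaminidase lost in Tay-Sachs disease, was at 48.6, 51.8 and 56.6 CPM in WT, 61.1, 70.8 and 63.4 CPM in GFP, 72.8, 78.0 and 80.5 CPM in GSTA4, and 67.6, 71.1 and 69.5 CPM in OSK. GSTA4 was highest and WT lowest. HEXA was higher in GFP than in WT (log2 fold change 0.31, SE 0.075, adjusted p = 0.00517) and rose in GSTA4 against GFP (log2 fold change 0.24, SE 0.074, adjusted p = 0.017), the latter call being lost without GFP replicate 1 or 3 or GSTA4 replicate 2 or 3 (adjusted p of up to 0.08). GALC, which cleaves galactosylceramide, was called, of the 4 contrasts, in OSK against GSTA4 (log2 fold change 0.43, SE 0.12, adjusted p = 0.00522), and in GSTA4 against GFP in 4 of 19 other settings. ARSA at 57.3 to 77 CPM and NPC2 at 192 to 235 CPM over all libraries, a sulfatide sulfatase and the soluble partner of NPC1, passed in none of the 4 contrasts. In OSK against GSTA4, ARSA passed in 4 of 19 other settings (adjusted p down to 0.0134) and NPC2 in 1 (adjusted p = 0.033).

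ACP2, the lysosomal acid phosphatase, was at 36.3, 40.2 and 41.5 CPM in WT, 46.7, 49.9 and 51.5 CPM in GFP, 34.0, 35.1 and 41.5 CPM in GSTA4, and 55.8, 57.8 and 51.1 CPM in OSK. GSTA4 was lowest with WT, and OSK and GFP were higher. ACP2 fell in GSTA4 against GFP (log2 fold change -0.42, SE 0.087, adjusted p = 0.000913), was higher in GFP than in WT (log2 fold change 0.33, SE 0.086, adjusted p = 0.0095) and was not called in OSK against GFP (log2 fold change 0.15, SE 0.085, adjusted p = 0.148). In OSK against GSTA4 it was higher (log2 fold change 0.58, SE 0.086, adjusted p = 1.16e-05).

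**Figure D4:**
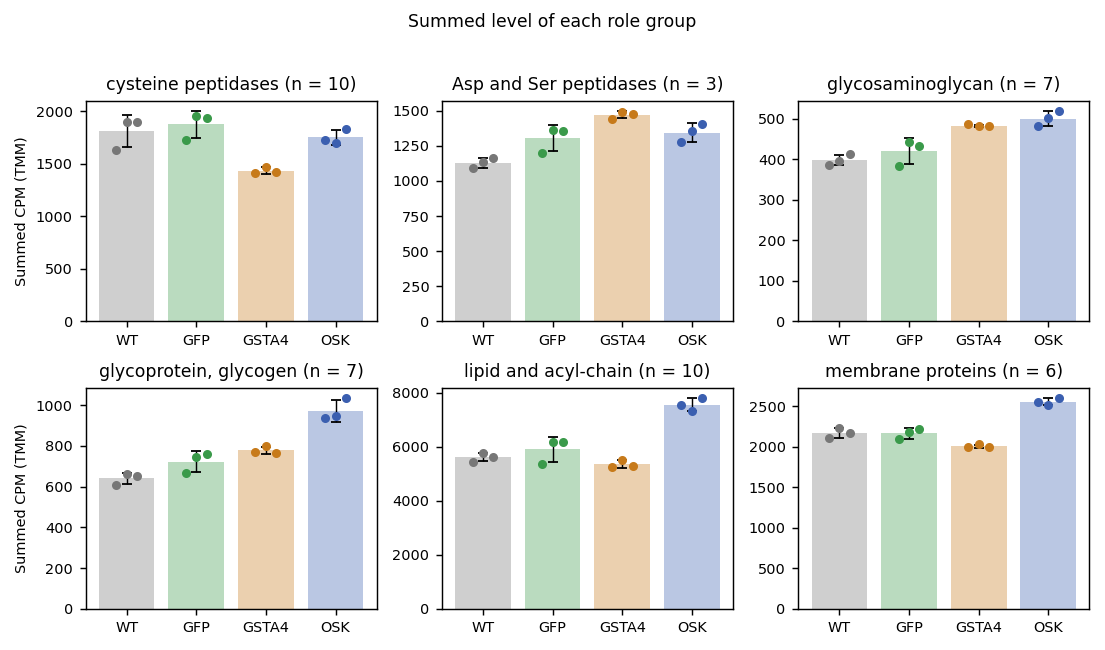
Summed CPM of each role group, with bars for the mean and SD of 3 libraries, points for the libraries and n for the number of genes; each panel has its own vertical axis starting at 0. Cysteine peptidases are lowest in GSTA4, aspartic and serine peptidases are highest there, and the glycoprotein and lipid groups are highest in OSK; the lipid panel is mostly PSAP.

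Read against WT instead of GFP, GSTA4 had 27 of 44 members called (17 higher, 10 lower), where 38.6% of all genes were, 19.7% higher and 19.0% lower. OSK had 30 called (26 higher, 4 lower), where 45.4% of all genes were, 22.7% in each direction. The libraries did not overlap for 32 members in GSTA4 against WT (49.0% of all genes) and for 29 in OSK against WT (53.5%). Of the 16 members called in GSTA4 against GFP, 12 were also called against WT, and of the 26 called in OSK against GFP, 22 were. Both comparisons of a line use the same libraries of that line. How many of all genes were called in both was not counted, so these overlaps have no background. CTSK (log2 fold change -1.42, SE 0.068, adjusted p = 1.59e-12) and CTSH (log2 fold change -0.90, SE 0.095, adjusted p = 2.31e-07) were lower in GSTA4 than in WT as well. FUCA2 (log2 fold change 1.34, SE 0.073, adjusted p = 4.42e-12), GAA (log2 fold change 1.04, SE 0.094, adjusted p = 1.23e-08) and GLA (log2 fold change 1.00, SE 0.15, adjusted p = 1.02e-05) were higher in OSK than in WT.

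Other genes of the pathway were listed by role, and their counts are read against all tested genes, of which 23.1% rose and 22.8% fell in OSK and 14.7% rose and 14.6% fell in GSTA4, each against GFP. Of 17 tested subunits of the proton pump V-ATPase and its partners, 7 rose and 3 fell in OSK against GFP, and 2 rose and 3 fell in GSTA4 against GFP, the latter 29.4% called beside 29.2% of all genes. TCIRG1, a membrane subunit known from osteoclasts, was at 15.5, 15.1 and 12.6 CPM in WT, 11.8, 12.7 and 11.5 CPM in GFP, 12.9, 11.1 and 9.96 CPM in GSTA4, and 29.8, 29.7 and 24.7 CPM in OSK. It was low outside OSK and rose there (log2 fold change 1.23, SE 0.12, adjusted p = 5.45e-08), and ATP6AP2, an accessory subunit, rose too (log2 fold change 0.72, SE 0.062, adjusted p = 5.63e-09). In GSTA4, ATP6V0A2 (log2 fold change -0.35, SE 0.077, adjusted p = 0.00161) and ATP6V0E1 (log2 fold change -0.26, SE 0.056, adjusted p = 0.00169) fell. Of 19 other tested lysosomal proteins, 8 rose and 3 fell in OSK and 4 rose and 1 fell in GSTA4 against GFP, in all 57.9% and 26.3% called beside 45.9% and 29.2% of all genes. PLBD2, a phospholipase B-like protein, was at 140.5, 135 and 139 CPM in WT, 109, 112 and 116 CPM in GFP, 101, 98.6 and 98.7 CPM in GSTA4, and 316, 282 and 356 CPM in OSK. It was far higher in OSK than in the other groups and rose there against GFP (log2 fold change 1.5, SE 0.07, adjusted p = 4.12e-13). In GSTA4, SLC17A5, which exports sialic acid (log2 fold change 0.42, SE 0.086, adjusted p = 0.000788), and LAPTM4A, a membrane protein of late endosomes (log2 fold change 0.38, SE 0.055, adjusted p = 2.1e-05), rose.

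Of 7 genes of mannose phosphate tagging and sorting, 3 rose and 3 fell in OSK and 1 rose and 2 fell in GSTA4 against GFP, so that 85.7% and 42.9% were called beside 45.9% and 29.2% of all genes. SORT1, a sorting receptor, was at 417, 507 and 525 CPM in WT, 692, 689 and 697 CPM in GFP, 500.4, 518 and 540.3 CPM in GSTA4, and 324, 331 and 335 CPM in OSK. GFP was highest and OSK lowest, with no overlap between the GFP, GSTA4 and OSK libraries. SORT1 fell in OSK (log2 fold change -1.07, SE 0.07, adjusted p = 1.07e-10) and in GSTA4 (log2 fold change -0.41, SE 0.07, adjusted p = 0.000119), and GNPTAB, which makes the mannose phosphate tag, fell in OSK (log2 fold change -0.60, SE 0.064, adjusted p = 1.45e-07) and in GSTA4 (log2 fold change -0.32, SE 0.063, adjusted p = 0.000729). Of 4 tested cystatins and other cathepsin inhibitors, 3 rose in OSK and 3 in GSTA4 against GFP, and 1 was not called in each, beside the 23.1% and 14.7% of all genes that rose. SERPINB6, an intracellular serpin, was at 56.5, 62.8 and 59.5 CPM in WT, 55.7, 55.1 and 48.0 CPM in GFP, 73.5, 73.9 and 68.8 CPM in GSTA4, and 106, 106 and 119 CPM in OSK. It rose in OSK (log2 fold change 1.06, SE 0.074, adjusted p = 2.58e-10) and in GSTA4 (log2 fold change 0.45, SE 0.075, adjusted p = 0.000117). CST3, the secreted cystatin C, rose in OSK (log2 fold change 0.72, SE 0.074, adjusted p = 8.76e-08), and SERPINB1, an inhibitor of granule serine proteases, rose in GSTA4 (log2 fold change 0.63, SE 0.092, adjusted p = 2.39e-05).

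Among 12 tested MiT factors and genes of their control by mTORC1 and Rag GTPases, 3 rose and 3 fell in OSK, and 1 rose and 3 fell in GSTA4 against GFP. These were 50% and 33.3% called, near the 45.9% and 29.2% of all genes. MITF, the relative of TFEB that drives pigment cell genes, was at 187, 216 and 218 CPM in WT, 243, 253 and 252 CPM in GFP, 170.1, 198 and 189 CPM in GSTA4, and 144, 141 and 152 CPM in OSK. OSK was lowest and GFP highest. MITF fell in OSK (log2 fold change -0.78, SE 0.068, adjusted p = 9.09e-09) and in GSTA4 (log2 fold change -0.42, SE 0.068, adjusted p = 6.97e-05), while TFE3, another relative of TFEB, rose in OSK (log2 fold change 0.45, SE 0.067, adjusted p = 1.28e-05). FNIP2, part of a regulator of Rag GTPases, fell in GSTA4 (log2 fold change -0.43, SE 0.11, adjusted p = 0.00661). Of 10 autophagy genes, 7 rose and 1 fell in OSK, and 2 rose and 1 fell in GSTA4 against GFP, where 45.9% and 29.2% of all genes were called. GABARAPL1, a protein of the autophagosome membrane (log2 fold change 0.71, SE 0.059, adjusted p = 4.09e-09), and ULK1, the kinase that starts autophagy (log2 fold change 0.69, SE 0.059, adjusted p = 5.32e-09), rose in OSK. BECN1, part of the lipid kinase complex of autophagy, rose in GSTA4 (log2 fold change 0.28, SE 0.072, adjusted p = 0.00613), and UVRAG, its partner, fell there (log2 fold change -0.39, SE 0.11, adjusted p = 0.00918), a call lost without GSTA4 replicate 1 (adjusted p = 0.0503).

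For GFP compared with WT, 11.0% of all tested genes were higher and 11.2% lower. Of the 17 V-ATPase genes 2 were higher and 3 lower, of the 19 other lysosomal proteins 6 were higher and 2 lower, of the 12 genes of the MiT and mTORC1 list 4 were higher and 2 lower, and of the 10 autophagy genes 1 was higher and 4 lower. Of the 4 inhibitors, edgeR and DESeq2 each called 0, and 1 had an unadjusted p under 0.05, SERPINB6 (log2 fold change -0.17, SE 0.075, adjusted p = 0.11). SORT1 was higher in GFP (log2 fold change 0.52, SE 0.07, adjusted p = 2.57e-05) and was the 1 call among the 7 sorting genes. RRAGD, a Rag GTPase and a known TFEB target, was higher (log2 fold change 0.49, SE 0.1, adjusted p = 0.00217), as was FNIP2 (log2 fold change 0.50, SE 0.11, adjusted p = 0.00347). SLC17A5 was lower (log2 fold change -0.48, SE 0.085, adjusted p = 0.00043) and AGA, which cleaves asparagine-linked glycan stubs, was higher (log2 fold change 0.37, SE 0.093, adjusted p = 0.00688). ATP6V0B (log2 fold change -0.30, SE 0.069, adjusted p = 0.00385) and ATP6V0E1 (log2 fold change -0.24, SE 0.056, adjusted p = 0.00433) were lower, and ULK1 was lower (log2 fold change -0.27, SE 0.059, adjusted p = 0.00238). UVRAG was higher (log2 fold change 0.35, SE 0.11, adjusted p = 0.0232), a call lost without any WT library or GFP replicate 1 or 3 (adjusted p of up to 0.0779).

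Between OSK and GSTA4, 24.1% of all tested genes were higher in OSK and 23.8% lower. Of the 17 V-ATPase genes 7 were higher in OSK and 3 lower, of the 19 other lysosomal proteins 7 were higher and 5 lower, and of the 7 sorting genes 3 were higher and 3 lower. Of the 12 genes of the MiT and mTORC1 list 5 were higher and 3 lower, of the 10 autophagy genes 6 were higher and 1 lower, and of the 4 inhibitors 2 were higher and 0 lower. PLBD2 (log2 fold change 1.68, SE 0.07, adjusted p = 4.71e-14), TCIRG1 (log2 fold change 1.30, SE 0.12, adjusted p = 1.68e-08), HGSNAT, the acetyltransferase of heparan sulfate breakdown (log2 fold change 0.87, SE 0.059, adjusted p = 9.8e-11), and ATP6AP2 (log2 fold change 0.87, SE 0.062, adjusted p = 2.65e-10) were higher in OSK. SORT1 (log2 fold change -0.65, SE 0.07, adjusted p = 1.25e-07) and MITF (log2 fold change -0.35, SE 0.068, adjusted p = 0.000233) were lower in OSK. SUMF1, which activates sulfatases (log2 fold change 0.53, SE 0.079, adjusted p = 1.1e-05), and RRAGD (log2 fold change 0.45, SE 0.1, adjusted p = 0.00101) were higher, as were GABARAPL1 (log2 fold change 0.67, SE 0.059, adjusted p = 6.7e-09), ULK1 (log2 fold change 0.65, SE 0.059, adjusted p = 9.06e-09), SERPINB6 (log2 fold change 0.61, SE 0.072, adjusted p = 4.72e-07) and CST3 (log2 fold change 0.51, SE 0.074, adjusted p = 7.17e-06).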

How the data were processed

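Raw counts of reads on each gene were deposited by the authors for 12 libraries, made from poly(A) RNA extracted with TRIzol and prepared with the NEBNext Ultra II kit, per the labels' protocols. The submitters' processing notes name STAR 2.7.1a, featureCounts 1.6.2, GRCh38, hg38, GRCm38 and mm10, without their role; the strand setting and annotation release are not given in the sources used here. Of 60605 lines, 20014 without a symbol (0.485% to 0.822% of reads) were left out, and 1272 of the 40591 named lines share a symbol with another.

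Counts were scaled by TMM and tested with edgeR 4.0.16 (limma 3.58.1, R 4.3.3): filterByExpr, 1 quasi-likelihood fit over all 12 libraries, 4 contrasts and an F test, Benjamini-Hochberg adjustment over 15179 genes. The biological coefficient of variation was 7.91%. SE is the absolute log2 fold change divided by the square root of F. Fold changes of low genes include edgeR's prior count of 0.125. The fit was tested on simulated data with known changes. A first criterion for that test, recovery over all tested genes, was missed and was replaced, after its value had been seen, by recovery among better covered genes, with limits on error and false calls. The fit itself was not altered. Over all genes, low ones included, the simulated OSK against GFP test called 10.2%, 44.9% and 64.4% of log2 changes of 0.25, 0.5 and 1 in size. Only 45 to 50 genes were changed at each size among 14867, where 45.9% of all genes were called in the data. The adjustment is stricter with so few changes, so these shares do not give the power in the data. A missing call does not show that a gene was unchanged.

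Groups and replicate numbers came from the sample titles. No 2 libraries were identical. Per-library values are given for TFEB, LAMP1, CTSD and CTSB, for members called with a log2 fold change of at least 1 in size, and for the 2 members of each role group with the lowest adjusted p in a contrast; of each other list, the 2 called genes with the largest change are named, except that 1 result is not reported here. The members and lists were chosen with earlier results of these data known. In GENCODE 29, 22 members share exon bases with another gene, 5 of them at least 10% with a gene on the same strand and 6 with 1 on the other strand, so their counts depend on how shared reads were assigned. Alternatives were RLE scaling, library size alone, other filters on low counts, DESeq2 1.42.0, a replicate block, only the 6 libraries compared, WT as control, a log2 change of at least 1, and leaving out each library.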

Additional observations from a re-analysis of the deposited data

How the results depend on the processing

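Gene-level alternatives were run for the members that were called or named in a contrast and for the named pathway genes. Of 88 calls of a member in a contrast, 70 were kept in all 19 gene-level settings (7 other ways of processing and each of the 12 libraries left out), 18 were lost in at least 1, and 0 changed direction. WT as control and a log2 change of at least 1 were run as counts only. Of the 88 pairs of a member and a contrast that were not called, 27 were called in at least 1 of the 19 settings, 9 of them only with a library left out. Besides single libraries, library size as the only scaling ended the OSK calls of CTSC, FUCA1 and MANBA against GFP and of MANBA against GSTA4. Other filters ended calls of CTSF and NEU1 in GSTA4 against GFP, of IDS and GLB1 for GFP compared with WT and of MANBA between OSK and GSTA4. DESeq2 ended that of NEU1 in GSTA4, and fitting only the 6 libraries compared ended those of CTSL, IDS, GAA and GLB1 for GFP compared with WT. Requiring a log2 change of at least 1 left 2 members in GSTA4 against GFP, 2 in OSK against GFP and 2 in OSK against GSTA4, and 0 for GFP compared with WT. Of all genes it left 5.70%, 11.6%, 13.1% and 3.31%. With WT as the control, 27 members were called for GSTA4, where 38.6% of all genes were. Leaving out 1 library gave 10 to 22 members in GSTA4 against GFP, with 10 without GSTA4 replicate 2, 23 to 28 in OSK against GFP, 12 to 20 in GFP against WT, 27 to 32 in OSK against GSTA4 and 36 to 40 by the F test. The matching shares of all genes were 22.1% to 32.4%, 39.6% to 48.5%, 14.5% to 21.1%, 41.2% to 49.5% and 61.0% to 65.4%. The other alternatives kept each count within 1.5 times. Among members named in a contrast, differences that had not been called changed sign in 5 fits that left out 1 library. TFEB in GSTA4 against GFP ranged from -0.204 without GFP replicate 1 to 0.27 without GFP replicate 3 and was 0.001 without GSTA4 replicate 2. CTSD in OSK against GFP ranged from -0.108 without GFP replicate 1 to 0.005 without OSK replicate 1 and was 0.001 without GFP replicate 3. CTSA in OSK against GSTA4 ranged from -0.063 without GSTA4 replicate 3 to 0.001 without OSK replicate 1. Other uncalled differences also crossed 0 over the 19 settings. Examples are FUCA1 in OSK against GSTA4 (-0.143 to 0.111) and GALC in GFP against WT (-0.08 to 0.139). The cause was not tested. Correlations of deviations from the group means did not settle if the replicate numbers pair the libraries. Same-numbered libraries correlated at -0.0193 to 0.153 and those of other numbers at -0.0982 to 0.077. Of 12 libraries, 6 correlated best with their own number. WT replicate 1 correlated at 0.153, 0.12 and 0.106 with replicate 1 of GFP, GSTA4 and OSK, while GFP replicate 1 and OSK replicate 1 correlated at -0.0035. With the replicate number as a block, 20 members were called in GSTA4 and 28 in OSK, each against GFP, 29 between OSK and GSTA4, 20 between GFP and WT, and 40 by the F test. The block called 31.2%, 47.9%, 49.2%, 24.9% and 68.3% of all genes in the same order. Depth limits TFEB and GLA most among the tested members.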
